A study of Mus musculus with 40 samples.

Results

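The colon was compared with the small intestine of the same 5 C57BL/6 mice, all of which had been given VSL#3, a mixture of live probiotic bacteria. The comparison holds 10 of the 40 arrays of the study, 5 of colon and 5 of small intestine, chosen by their titles and paired by the mouse code in their labels. The mice were specific-pathogen-free females of 9 weeks, gavaged with VSL#3 in 200 µl of PBS 3 times a week for 4 weeks. For reference, the same tissue difference was measured in 5 C57BL/6 mice gavaged with PBS alone and in 5 BALB/c mice gavaged with VSL#3. Another 5 BALB/c mice, gavaged with PBS alone, entered only the normalization, the choice of probes and the shared estimate of the spread. All groups were female, of the same age and gavaged on the same schedule, and strain and supplier cannot be told apart. RNA came from frozen tissue, and the labels name neither the stretch of small intestine or colon nor the layers taken. In such whole samples, fewer cells of a type and less RNA per cell cannot be told apart.

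The small intestine carries villi whose enterocytes digest sugars, peptides and fats with enzymes anchored in the brush border and take up the products. Its last stretch, the ileum, reclaims bile acids and cobalamin, and Paneth cells at the base of its crypts secrete alpha-defensins and lysozyme. The colon has no villi and no typical Paneth cells. Its surface cells take up water, salt and short-chain fatty acids, and goblet cells cover it with mucus that keeps a dense bacterial community away from the epithelium.

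Each array detected 11898 to 12951 of its 25697 probes (46.3% to 50.4%). Arrays of the same tissue correlated with r between 0.981 and 0.988 over probes, and colon with small intestine arrays between 0.932 and 0.949. A level below is a normalized log2 signal of a gene's probe, and a difference is colon minus small intestine within a mouse, averaged over the 5 mice in log2 units and given with its standard error (SE) from limma. A gene was called at a Benjamini-Hochberg adjusted p under 0.05, the adjustment covering all 10715 genes tested. Where a gene was detected on no array of one tissue, the fold was computed against the lowest signal detected on each array and is given as at least that fold.

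The markers chosen to check the labels separated the tissues. Sis, the brush border sucrase-isomaltase, had levels of 5.61, 5.57, 6.88, 5.95 and 5.57 in colon and of 13.35, 13.50, 13.64, 13.69 and 13.56 in small intestine (mice 1 to 5). Aqp8, a water channel of colonic surface cells, had levels of 11.05, 11.23, 11.33, 11.44 and 11.16 in colon and of 5.15, 5.90, 4.99, 4.81 and 5.14 in small intestine. The values of the tissues did not overlap for either gene, and both lay on the side of their label in every mouse. The strain label of the colon arrays was checked with H2-Ea, a class II chain that C57BL/6 mice do not make: it had levels of 4.80 to 6.90 in VSL#3 C57BL/6 colon and of 11.8 to 13.1 in VSL#3 BALB/c colon.

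Of the genes tested, 4313 were called (40.3%), 2476 higher in colon (23.1%) and 1837 lower (17.1%). A difference of at least 1 log2 was called for 533 genes higher in colon (4.97%) and 523 lower (4.88%). The median difference over all genes tested was 0.03. The 5 colon and 5 small intestine values did not overlap for 2567 genes (24.0%). No small intestine array detected 582 of the genes tested that colon arrays did, and no colon array detected 418 that small intestine arrays did. Detection on any array of the other tissue was enough for these counts. Colon arrays detected 12513 to 12951 probes and small intestine arrays 11898 to 12700.

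**Figure D1:**
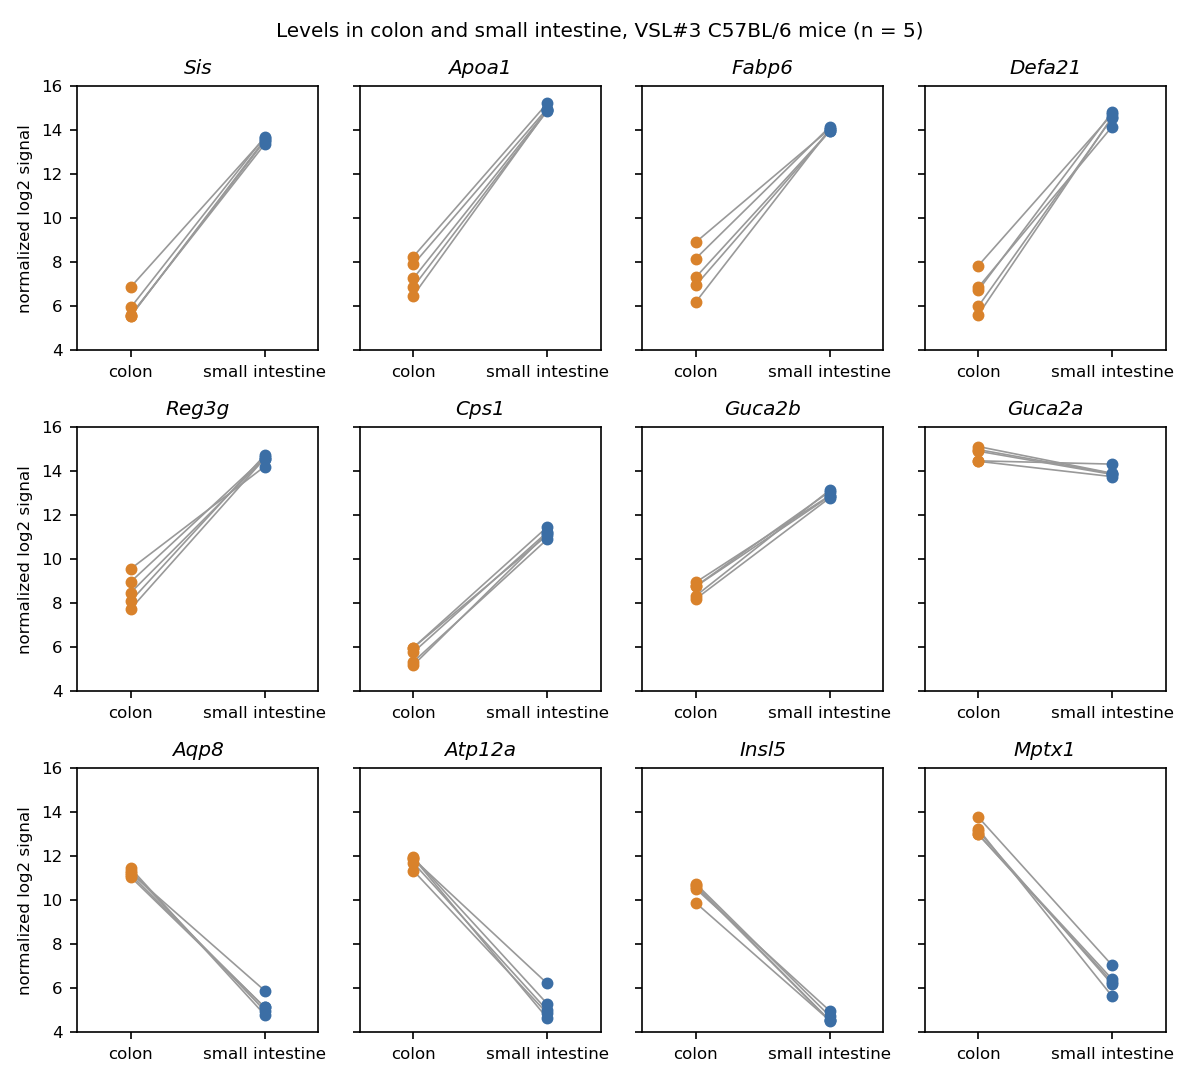
Normalized log2 signal (vertical axes) of 12 genes in colon (left, orange) and small intestine (right, blue) of the 5 VSL#3 C57BL/6 mice; each line joins the tissues of a mouse. Guca2a was higher in colon and Guca2b lower, by 0.84 and -4.34 log2, and the tissues overlap in none of the panels.

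Digestive enzymes of the brush border were lower in colon. Of 17 tested of 26 listed, 16 were lower and the remaining gene was not called, against 17.1% of all genes lower, and the median difference was -3.76. Sis differed by -7.63 ± 0.31 (adjusted p 4.2e-14). Anpep, aminopeptidase N, had levels of 6.61, 6.14, 6.59, 6.72 and 6.55 in colon and of 13.44, 13.67, 13.32, 13.45 and 13.49 in small intestine. Colon lay far below small intestine in every mouse, and the difference was -6.95 ± 0.19 (adjusted p 8.9e-17). Xpnpep2, an aminopeptidase that frees residues before proline, differed by -6.20 and Treh, the trehalase, by -5.91. Mme, neprilysin, was detected on none of the colon arrays and was at least 11.3-fold lower there. Dpp4, a dipeptidyl peptidase (-3.79), and Vil1, the microvillus protein villin (-1.75), were called with smaller differences and remained detected on all colon arrays.

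The promoter of Sis is shown because no tested brush border gene differed more. The window holds the 250 bases before the RefSeq gene start, chr3:72967864-72968113 of GRCm38.p6, minus strand, written 5′ to 3′. Capitals mark the letters GTTAAT, the core of the motif of HNF1 factors, read on the reverse strand, and GCAATAAA, a form of the CDX2 motif, read on the forward strand.
Sis: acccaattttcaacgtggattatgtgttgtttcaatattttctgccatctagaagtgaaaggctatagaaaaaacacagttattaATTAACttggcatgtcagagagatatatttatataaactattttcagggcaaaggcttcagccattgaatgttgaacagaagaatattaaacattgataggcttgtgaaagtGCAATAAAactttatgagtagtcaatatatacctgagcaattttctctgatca
Over both strands, GTTAAT stood in 6.43% of 32851 promoter windows of this length and GCAATAAA in 0.871%, and the motifs do not overlap. A match of letters describes the window and shows no binding.

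Uptake of sugars, amino acids and peptides went mostly the same way. Of 25 tested of 29 listed transporters, 19 were lower in colon and 5 higher, with a median of -1.78. Slc7a9, a subunit of the exchanger for cystine and basic amino acids, differed by -6.05, and Slc6a19, the sodium-coupled carrier of neutral amino acids, by -5.81. Slc5a1, the sodium-glucose carrier SGLT1, had levels of 8.52 ± 0.08 in colon and 11.19 ± 0.26 in small intestine (SD, n = 5 each). It thus stayed well above background in colon, while Slc2a2, the glucose carrier GLUT2, was detected on none of the colon arrays and was at least 2.80-fold lower. The 5 members higher in colon were Slc46a1, a folate and haem carrier (1.11), Slc6a14, a broad amino acid carrier that no small intestine array detected, Slc29a1, a nucleoside carrier (0.34), Slc36a1, a proton-coupled amino acid carrier (0.49), and Slc5a8, a carrier of short-chain monocarboxylates (0.49). The last 2 were not called without certain single mice: Slc36a1 without mouse 1, 3, 4 or 5 (0.43 to 0.45) and Slc5a8 without mouse 1, 2, 3 or 5 (0.38 to 0.50).

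Genes of fat absorption and lipoprotein assembly were lower in colon: 20 of 24 tested of 31 listed were lower, 4 were not called, and the median was -2.70. Apoa1, the main protein of high-density lipoprotein, differed by -7.61 ± 0.46 and Apoc3 by -6.72 ± 0.24. Apoa4, made by enterocytes during fat absorption, had levels of 4.44 to 4.95 in colon, where no array detected it, and of 10.40 to 10.88 in small intestine, and was at least 43.7-fold lower in colon. Mogat2, which rebuilds triglycerides (-5.66), Npc1l1, the cholesterol importer (-5.31), and Mttp, which loads lipid onto apolipoprotein B (-4.45), were each detected on at most 3 colon arrays. Abcg5 and Abcg8 form the pump that returns sterols to the gut lumen, and their genes lie head to head. Abcg5 differed by -3.64 ± 0.21 (adjusted p 1.6e-11) and Abcg8 by -4.47 ± 0.19 (adjusted p 6.4e-14).

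The stretch between both starts is shown because the pair shares it: chr17:84683012-84683120 of GRCm38.p6, in the direction of Abcg5, minus strand, 109 bases. Capitals mark AGATAA, the letters bound by GATA factors, which stood in 9.99% of all windows of 250 bases.
Abcg5: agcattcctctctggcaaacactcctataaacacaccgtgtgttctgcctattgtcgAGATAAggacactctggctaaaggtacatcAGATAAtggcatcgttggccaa

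Most markers of fat cells moved in the same direction as the lipid genes. Of 15 tested of 22 listed adipocyte markers, 10 were lower in colon and 2 higher, with a median of -0.88. Pparg, which also stands among the regional transcription factors, was 1 of the 2 higher in colon and had the largest difference of the list (2.67). The mean level of the list was 7.38 to 7.85 in colon and 8.01 to 8.66 in small intestine. Adipoq, adiponectin, had levels of 7.71, 8.04, 9.04, 7.37 and 8.17 in colon and of 9.15, 10.46, 9.86, 9.40 and 10.49 in small intestine, and was detected on all 10 arrays (difference -1.81 ± 0.48, adjusted p 0.0044). In mice with the code letter A alone, Adipoq was not called (-1.56, adjusted p 0.080). Cidec, a lipid droplet protein, differed by -1.93. The part of fat cells in the differences of lipid genes was not tested, and Agpat2 stands in both lists.

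Genes of bile acid and cobalamin recovery were mostly lower in colon: 10 of 11 tested of 14 listed were lower and 1 higher, with a median of -3.69. Fabp6, the bile acid binding protein of ileal enterocytes, had levels of 8.91, 7.32, 8.17, 6.95 and 6.20 in colon and of 14.04, 13.96, 14.14, 13.94 and 14.03 in small intestine (difference -6.51 ± 0.41). The small intestine values lay close together, and the colon values were spread widely, with mouse 1 highest and mouse 5 lowest. Slc51a and Slc51b, the subunits of the bile acid exporter, differed by -7.13 and -3.91. Amn, amnionless, part of the cobalamin receptor, differed by -6.01, and Fgf15, the hormone that reports bile acid uptake to the liver, by -3.95. Nr1h4, the bile acid receptor FXR, differed by -1.19, and Abcc3, a basolateral exporter, was the member higher in colon (0.78).

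Products of Paneth cells were lower in colon, with a named exception. Of 13 tested of 27 listed, 9 were lower and 2 higher, and the median was -4.35. The list also holds Guca2b, the uroguanylin gene described below, which is counted among the 9. The alpha-defensin Defa21 had levels of 6.86, 6.73, 7.85, 6.00 and 5.62 in colon and of 14.16, 14.81, 14.72, 14.54 and 14.59 in small intestine. Its difference of -7.95 ± 0.39 was the largest below 0 among the called genes. Defa39 (-7.69), Defa26 (-6.80), Defa22 (-6.33) and Defa20 (-4.43) followed; these genes are near-identical copies, so their probes may read each other's transcripts. Mmp7, the protease that activates defensins, was detected on none of the colon arrays (at least 36.9-fold lower), and Lyz1, the Paneth cell lysozyme, differed by -2.46 while staying detected on all of them. Itln1, the lectin intelectin-1, differed by -5.06.

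Mptx1, mucosal pentraxin 1, listed with the Paneth products, went the other way. Its levels were 13.23, 13.77, 13.13, 12.99 and 12.99 in colon and 5.64, 7.05, 6.18, 6.29 and 6.42 in small intestine. The values did not overlap, and the difference was 6.90 ± 0.40 (adjusted p 1.2e-11). Nupr1, a stress-responsive chromatin protein, was the other member higher in colon (0.68). Ang4, an antimicrobial ribonuclease, was detected on all 10 arrays at 13.43 ± 0.66 in colon and 13.49 ± 0.15 in small intestine, a difference of -0.06 ± 0.45 that was not called.

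Other antimicrobial genes of the epithelium split by family. Of 19 tested of 26 listed, 6 were lower in colon and 5 higher (57.9% called, beside the 40.3% of all genes). The Reg3 lectins, which act on bacteria at the mucosal surface, were lower: Reg3g had levels of 9.57, 8.10, 8.98, 8.49 and 7.75 in colon and of 14.21, 14.72, 14.62, 14.57 and 14.57 in small intestine. Its difference was -5.96 ± 0.49, beside -7.32 for Reg3a and -5.05 for Reg3b. Nos2, the inducible nitric oxide synthase, was detected on none of the colon arrays and was at least 2.42-fold lower. Higher in colon were Wfdc2, a secreted protein with whey acidic domains (6.78), Retnlb, the goblet cell protein RELM-beta (6.38), Saa1, serum amyloid A (2.08), Retnla, RELM-alpha (1.19), and Zg16, a lectin of the mucus (0.26, but -0.02 with median scaling and -0.12 with cyclic loess).

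**Figure D2:**
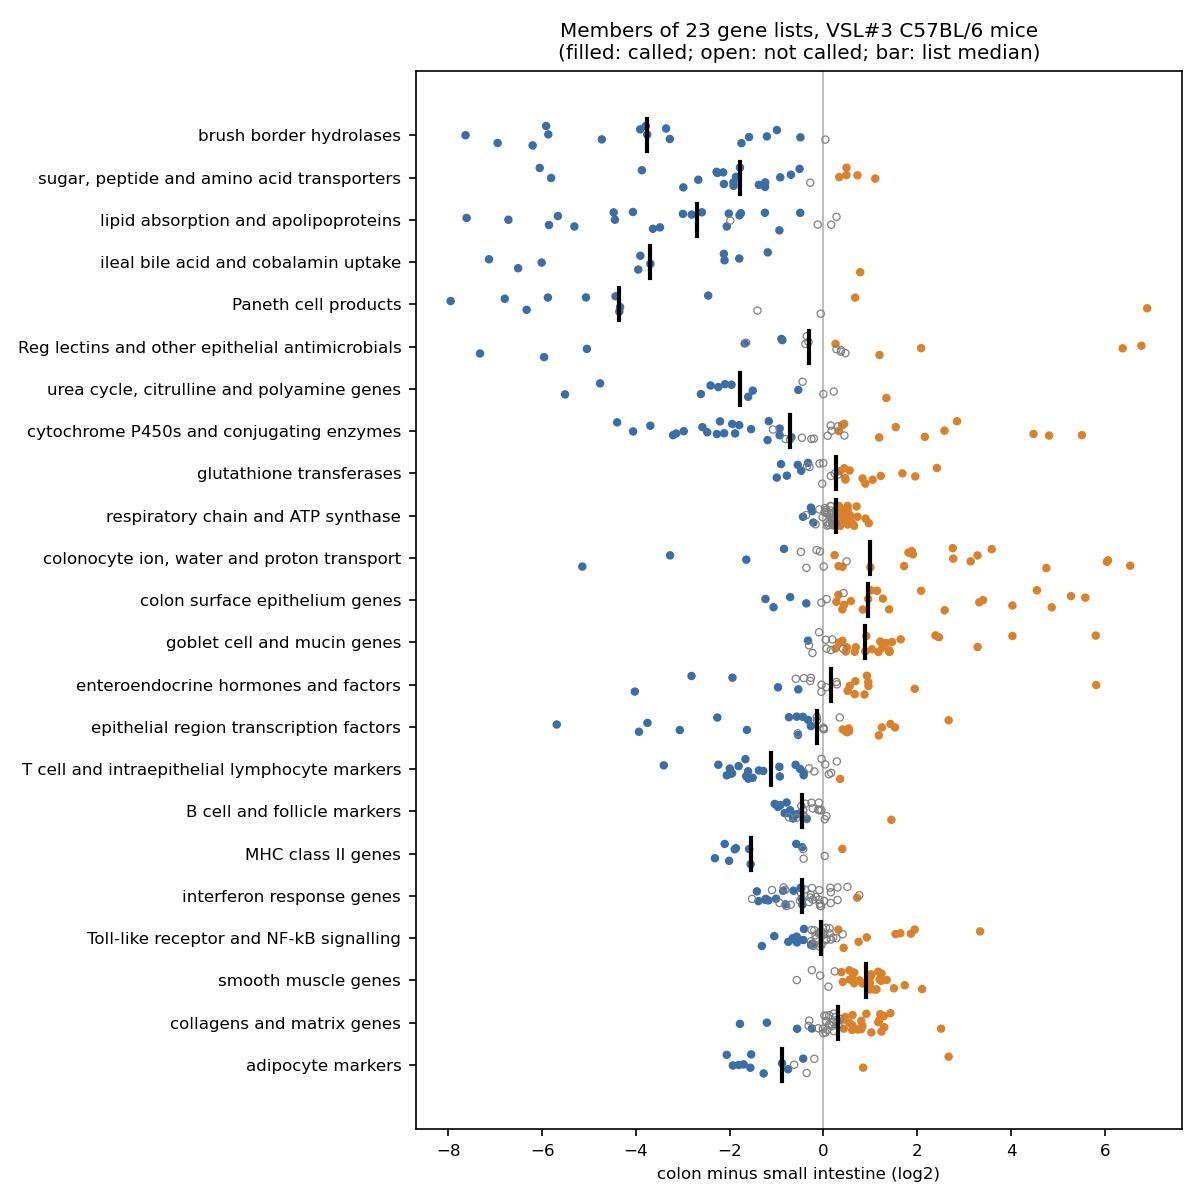
Difference between colon and small intestine (log2, horizontal axis) of each tested member of 23 gene lists in VSL#3 C57BL/6 mice; filled points were called, open points were not, and bars are list medians. Brush border enzymes have a median of -3.76 and Paneth cell products of -4.35, while smooth muscle genes have a median of 0.90.

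Genes of colonic ion, water and proton transport were mostly higher in colon: 17 of 27 tested of 33 listed were higher and 4 lower, with a median of 1.00, against 23.1% of all genes higher. Atp12a, the colonic proton-potassium pump, had levels of 11.94, 11.88, 11.70, 11.34 and 11.92 in colon and of 5.31, 6.23, 5.01, 4.87 and 4.66 in small intestine (difference 6.54 ± 0.24). Aqp8 differed by 6.05 ± 0.15 and Aqp4, a basolateral water channel, by 4.75 ± 0.15. The carbonic anhydrase genes did not move together: Car2 (6.07, with 1.57 at another probe) and Car4 (3.14) were higher in colon, and Car13 was lower (-1.65).

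Subunits of the sodium channel ENaC, which aldosterone controls, were higher in colon. Scnn1a, its alpha subunit, differed by 2.76 ± 0.13, and Scnn1b, its beta subunit, was detected on none of the small intestine arrays and was at least 2.28-fold higher in colon. Hsd11b2, the enzyme that shields the aldosterone receptor from glucocorticoids, differed by 3.59. The chloride exchanger Slc26a3 had levels of 5.98 to 7.63 in colon and of 4.40 to 5.48 in small intestine (1.88), whereas Slc26a6, a related exchanger, was lower in colon (-5.14). Trpm6, a magnesium channel (1.91), Best2, a bicarbonate channel of goblet cells (at least 2.25-fold), and Ano1, a calcium-activated chloride channel that also marks pacemaker cells of the gut wall (3.29), were higher in colon. Clca4b (-3.27) and Clca4a (-0.84), of the family of calcium-activated chloride channel regulators, were lower.

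The 2 guanylate cyclase agonists of the epithelium differed in opposite directions. Guanylin and uroguanylin bind the same receptor and set fluid secretion, and their genes lie side by side on chromosome 4. Guca2a, guanylin, had levels of 14.44, 14.97, 14.90, 15.11 and 14.46 in colon and of 13.75, 13.89, 13.85, 13.90 and 14.32 in small intestine. Guca2b, uroguanylin, had levels of 8.20, 8.76, 8.78, 8.96 and 8.34 in colon and of 12.78, 12.85, 13.07, 12.89 and 13.13 in small intestine. The tissues did not overlap for either gene, and the differences were 0.84 ± 0.16 (adjusted p 0.00021) for Guca2a and -4.34 ± 0.20 (adjusted p 4.3e-13) for Guca2b. In mice with the code letter B alone, Guca2a was not called (0.68, adjusted p 0.061).

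The promoters of the pair are set side by side, each the 250 bases before the RefSeq gene start: Guca2a at chr4:119637482-119637731, plus strand, and Guca2b at chr4:119658946-119659195, minus strand, both of GRCm38.p6. Capitals mark AGATAA, the letters of GATA factors, on the reverse strand of Guca2a. They mark GTTAAT, the letters of HNF1 factors, on the forward strand of Guca2b.
Guca2a: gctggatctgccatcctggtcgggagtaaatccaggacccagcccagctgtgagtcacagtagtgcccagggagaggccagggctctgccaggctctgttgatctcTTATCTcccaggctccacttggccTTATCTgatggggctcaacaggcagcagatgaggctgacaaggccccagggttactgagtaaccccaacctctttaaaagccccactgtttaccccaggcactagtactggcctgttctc
Guca2b: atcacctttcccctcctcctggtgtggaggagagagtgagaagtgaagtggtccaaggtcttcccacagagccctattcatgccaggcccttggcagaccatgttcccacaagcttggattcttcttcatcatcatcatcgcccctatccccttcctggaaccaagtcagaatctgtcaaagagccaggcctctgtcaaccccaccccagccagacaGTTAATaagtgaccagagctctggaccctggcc
Counted from the gene start, the AGATAA matches lay at -144 and -120 in Guca2a, and the GTTAAT match at -33 in Guca2b.

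Genes of the colonic surface epithelium were higher in colon in 20 of 27 tested of 34 listed and lower in 4, with a median of 0.95. B3galt5, a galactosyltransferase (5.58), Nxpe2 (5.28), Nxpe4 (4.87), Tgm3, a transglutaminase (at least 15.4-fold), and Fut2, which adds the fucose of the secretor antigen (4.03), led the list. Lgals3, galectin-3, differed by 1.27, and Gsdmc2, a gasdermin C, by 2.58. Krt20, a keratin of mature surface cells, and Mall, a membrane raft protein, were lower in colon (-1.07 and -1.24). Lgals2, galectin-2, which stands outside the list, differed by -7.23 and was detected on all colon arrays.

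Goblet cell and mucin genes were higher in colon in 24 of 33 tested of 40 listed and lower in 1, with a median of 0.89. St6galnac6, a sialyltransferase of mucin-type sugars, was detected on none of the small intestine arrays, with levels of 10.58 ± 0.14 in colon and 4.77 ± 0.21 in small intestine (SD, n = 5 each), and was at least 41.9-fold higher in colon. St3gal6, another sialyltransferase, differed by 3.29 ± 0.10. Clca1, a protease secreted with mucus, had 15.14 ± 0.14 in colon and 13.50 ± 0.13 in small intestine (1.65). Spdef, the factor that drives goblet cell maturation (1.40), Agr2, a mucin-folding disulphide isomerase (1.41), and Ern2, a stress sensor of mucous cells (1.33), were higher in colon, as was Klk1, a kallikrein (2.46). Tff3, a trefoil peptide of goblet cells, was the member lower in colon, by -0.33 ± 0.08, and its values in both tissues overlapped.

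Granule genes named for the pancreas were also among those higher in colon. Sycn, syncollin, had levels of 13.80, 14.12, 13.94, 14.16 and 14.72 in colon and of 5.40, 7.74, 5.12, 5.17 and 4.78 in small intestine, and its difference of 8.51 ± 0.43 (adjusted p 1.4e-12) was the largest above 0. Cela1, an elastase, differed by 4.47. Of 26 tested of 30 listed acinar markers, 4 were higher in colon (Sycn, Cela1, Klk1 and Zg16) and 22 were not called, a share called of 15.4% beside the 40.3% of all genes. The acinar protease Cpa1 was detected on 1 colon array, that of mouse 5 (level 6.81), and on none of the small intestine arrays. Cela2a had a level of 9.59 in the colon of mouse 5 and of 4.81 to 5.32 in the other colon samples. The acinar list had a median of 1.56 in mouse 5 and of 0.03 to 0.12 in the other mice; the list median was 1.50 in PBS C57BL/6 and 3.24 in VSL#3 BALB/c mice. The mean level of the list was 6.79 to 8.34 in colon and 6.47 to 6.57 in small intestine. Without mouse 5 the difference of Sycn was 8.15, also called.

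Hormones of enteroendocrine cells changed in both directions. Of 24 tested of 32 listed, 10 were higher in colon and 5 lower (62.5% called, beside the 40.3% of all genes). Insl5, a relaxin-family peptide of colonic L cells, had levels of 10.75, 10.52, 10.62, 9.88 and 10.67 in colon and of 4.53 to 4.99 in small intestine, where no array detected it, and was at least 39.3-fold higher in colon. Pyy, peptide YY, another L cell hormone, differed by 1.95 ± 0.11. Gcg, which encodes the glucagon-like peptides of the same cells, differed by 0.29 ± 0.18 and was not called. Tph1, which starts serotonin synthesis (0.96), and Chgb, a granule protein (0.87), were higher in colon.

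The 5 members lower in colon were Sct, secretin (-2.81), Sst, somatostatin (-0.97), Ghrl, ghrelin (at least 2.90-fold lower), Gip, the glucose-dependent insulinotropic peptide (-0.54), and Nts. Cck, cholecystokinin, differed by -0.59 and was not called (adjusted p 0.077), though it was called without mouse 4 (-0.88). Gip was not called without mouse 1, 3 or 5 (-0.50 to -0.44) or without pairing the tissues by mouse. Nts, neurotensin, had levels of 4.68 to 5.47 in colon and of 8.57 to 9.58 in small intestine (-4.02), while another probe of the gene showed -0.18.

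Of 29 tested of 42 listed transcription factors with regional roles in the epithelium, 12 were lower in colon and 10 higher, and the median was -0.14. Osr2 had levels of 6.17, 5.35, 6.18, 7.51 and 5.81 in colon and of 11.83 to 12.02 in small intestine (-5.69 ± 0.51). Tbx3, a T-box factor, differed by -3.93 and Isx, the intestinal homeobox factor that represses carotenoid cleavage, by -2.26. Gata5 was detected on none of the colon arrays (at least 5.91-fold lower), and Creb3l3, a regulator of lipid genes, and Hnf4g were each detected on 1 (-3.75 and -1.63). The factors shared by both organs differed less: Hnf4a by -0.33, Gata6 by -0.27, Cdx2 by -0.54 and Cdx1 by 0.54. Cdx2 was not called without any 1 of the 5 mice (-0.60 to -0.49), and Cdx1 was not called without mouse 2 (0.38). Higher in colon were Pparg, a nuclear receptor for fatty acids (2.67), Foxa2 (1.53), Sox9, a crypt factor (1.43), Klf4, a factor of differentiating surface and goblet cells (1.25), and Foxa1 (1.18).

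Hox genes are kept in 4 clusters, A to D, and are numbered 1 to 13 by their place in a cluster, which follows the order of their domains from head to tail in the embryo. Of 26 tested of 37 listed, 11 were higher in colon and 6 lower, with a median of 0.25. By cluster, 6 of 7 in A were higher and none lower, 1 of 7 in B was higher and 4 lower, 2 of 5 in C were lower and none higher, and 4 of 7 in D were higher and none lower. By place, 8 of 12 genes numbered 9 to 13 were higher in colon and 1 lower (median 0.83), and 3 of 14 numbered 1 to 8 were higher and 5 lower (median -0.44).

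Hoxd10 had levels of 8.53, 8.44, 8.72, 8.28 and 8.81 in colon and of 4.51 to 4.95 in small intestine, where no array detected it, and was at least 10.3-fold higher in colon. Hoxc6 had levels of 4.63 to 5.39 in colon and of 9.03, 9.05, 9.46, 9.27 and 9.67 in small intestine (-4.19 ± 0.20). Hoxa7 (3.26), Hoxa5 (2.55) and Hoxa9 (1.83) stood higher in colon, beside Hoxb7 (-2.66), Hoxb6 (-1.73) and Hoxb4 (-1.48), which stood lower. Some paralogs of the same number differed in opposite directions, as Hoxa7 did to Hoxb7 and Hoxa9 to Hoxc9 (-1.73), whereas Hoxb9 (0.64) was higher in colon like Hoxa9. Of the last numbers, Hoxd13 (1.66), Hoxd12 (at least 1.80-fold) and Hoxa13 (1.15) were higher in colon. Another probe of Hoxa13 showed 0.36 and was not called (adjusted p 0.10). Hoxa9 and Hoxd13 were each detected on 1 small intestine array, Hoxc9 on 1 colon array and Hoxc6 and Hoxb6 on 3. The sizes of these genes are therefore not exact.

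**Figure D3:**
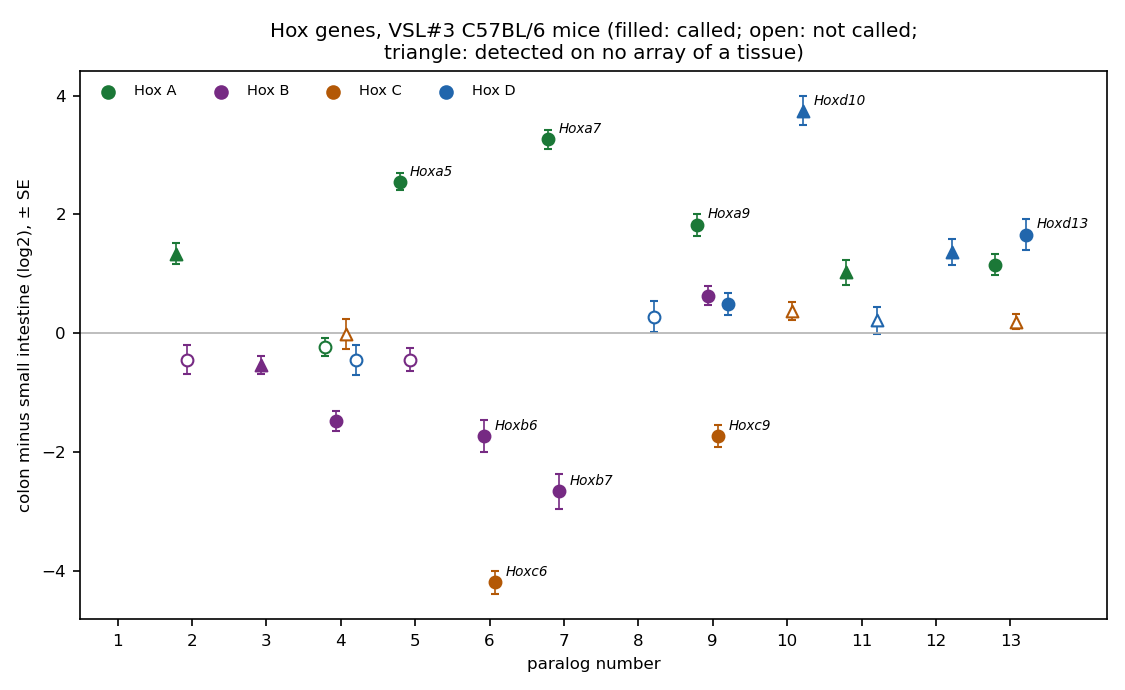
Difference between colon and small intestine (log2, vertical axis) of 26 Hox genes in VSL#3 C57BL/6 mice by paralog number (horizontal axis) and cluster (colour); bars are SEs of the limma fit, and filled points were called. Triangles are genes that no array of at least one tissue detected, such as Hoxd10, whose fitted value is no exact size. Among the other genes Hoxa7 (3.26) lies highest and Hoxc6 (-4.19, detected on 3 of 5 colon arrays) and Hoxb7 (-2.66) lowest.

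Most genes of the urea cycle and of citrulline and polyamine synthesis were lower in colon: 10 of 14 tested of 17 listed were lower and 1 higher, with a median of -1.78. Enterocytes of the small intestine are known to make citrulline from glutamine. Cps1, carbamoyl phosphate synthetase, had levels of 5.99, 5.34, 5.99, 5.19 and 5.78 in colon and of 11.46, 10.90, 11.09, 11.17 and 11.23 in small intestine (-5.51 ± 0.18). Otc, the next enzyme, differed by -2.61, while another probe showed -0.01, and Oat, the ornithine aminotransferase, by -1.61. Arg2, the mitochondrial arginase, differed by -4.76. Ass1, which joins citrulline to aspartate on the way to arginine, was the member higher in colon, with levels of 7.65 to 8.22 in colon and of 6.32 to 6.82 in small intestine (1.34 ± 0.13).

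Of 43 tested of 58 listed genes of drug oxidation and conjugation, 20 were lower in colon and 12 higher. Cyp3a25 and Cyp3a11, of the family that oxidises most drugs, were detected on none of the colon arrays and were at least 16-fold and 9.14-fold lower. Cyp2d34 was detected on none of the small intestine arrays and was at least 30.0-fold higher in colon, and Sult1a1, a phenol sulphotransferase, differed by 4.81 ± 0.22. Of glutathione transferases, 12 of 26 tested of 28 listed were higher in colon and 6 lower. Gstm1 (2.42, with 0.27 at another probe) and Gstm2 (1.96) of the mu class were higher, while Gsta1 of the alpha class (-0.78) and the microsomal Mgst1 (-0.996) were lower. Hao2, a peroxisomal hydroxyacid oxidase outside these lists, differed by 5.55.

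Genes of the respiratory chain and ATP synthase were slightly higher in colon. Of 70 tested of 77 listed, 41 were higher and 4 lower, the median was 0.26, and the median lay between 0.22 and 0.29 in each of the 5 mice. Ndufa1 (0.90) and Uqcr10 (0.72), subunits of complexes I and III, and Cox5b (0.71), of cytochrome oxidase, were examples, and Ndufa4 (-0.44) was lower. Fatty acid oxidation was divided, with 8 lower and 6 higher of 24 tested (58.3% called, beside the 40.3% of all genes). Acads (0.69) and Acadl (0.69, but 0.26 and not called at another probe), dehydrogenases of short and long chains, were higher in colon, and Angptl4, a lipase inhibitor that fatty acids induce, was lower (-2.85). Of 20 tested cholesterol synthesis genes, 4 were lower and 1 higher. Iron export differed within its pair: Slc40a1, ferroportin, was higher in colon (1.17), and Heph, the ferroxidase that works with it, was lower (-0.93).

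T cell genes were lower in colon. Of 28 tested of 40 listed markers of T cells and intraepithelial lymphocytes, 20 were lower and 1 higher, with a median of -1.11. Cd3e, a chain of the T cell receptor complex, had levels of 6.13, 5.87, 6.11, 5.15 and 5.12 in colon and of 7.87, 7.57, 7.16, 7.78 and 7.88 in small intestine (-1.98 ± 0.18, adjusted p 2e-08). Cd3g (-2.24), Cd8b1 (-1.66), Cd160 (-1.38) and Itgae, the integrin that holds T cells in the epithelium (-2.06), were lower in colon. Ccl5, a chemokine of cytotoxic T cells, had levels of 5.69 to 7.88 in colon and of 9.50 to 10.70 in small intestine (-3.41). Thy1, which stromal cells and neurons also carry, was the member higher in colon (0.36); it was not called without mouse 2, 3 or 4 (0.32 to 0.33).

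Epithelial chemokines that draw lymphocytes to the gut differed in opposite directions. Ccl25, which draws Ccr9-bearing lymphocytes to the small intestine, had levels of 6.89, 7.47, 7.24, 6.81 and 6.26 in colon and of 12.38, 13.24, 12.86, 12.59 and 12.87 in small intestine (-5.85 ± 0.16). Ccl28, which attracts plasma cells to the colon, had levels of 7.85, 7.85, 7.89, 6.97 and 7.68 in colon and of 6.43, 6.66, 6.48, 6.96 and 6.05 in small intestine (1.13 ± 0.19). For Ccl28 mouse 4 had nearly equal levels in both tissues, and the ranges just did not overlap. Of the 30 tested of 44 listed chemokine and homing genes, 12 were lower in colon and 2 higher. The share called was 46.7%, near the 40.3% of all genes.

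Of 28 tested B cell and follicle markers, 12 were lower in colon and 1 higher, with a median of -0.45. The share called was 46.4%, near the 40.3% of all genes. The list median was -0.84, 0.09, 0.02, -0.64 and -0.87 in mice 1 to 5, so that mice 2 and 3 had no lower median in colon. Ccr6, a receptor of follicle-homing cells, was called (-0.97), with values that overlapped between the tissues. Blnk, an adaptor of receptor signalling that macrophages also carry, was the member higher in colon (1.45). Jchain, which joins secreted IgA, had levels of 6.37, 8.35, 6.97, 6.66 and 5.95 in colon and of 7.62, 8.46, 7.77, 7.96 and 7.69 in small intestine (-1.04 ± 0.25). Among 28 tested myeloid markers, 7 were lower and 5 higher, a share of 42.9% called beside the 40.3% of all genes. Mrc1 (0.91) and Cd163 (0.89), scavenger receptors of resident macrophages, and Cd14, the lipopolysaccharide co-receptor (1.87), were higher in colon, and C1qa (-0.52) and Clec7a, the beta-glucan receptor dectin-1 (-1.20, but -0.23 and not called at another probe), were lower.

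MHC class II genes were lower in colon, by amounts that varied between mice. Of 13 tested of 15 listed, 9 were lower and 1 higher, with a median of -1.55. H2-Ab1 had levels of 11.85, 11.02, 10.89, 10.08 and 9.72 in colon and of 12.80, 12.87, 12.43, 12.69 and 12.84 in small intestine (-2.01 ± 0.30, adjusted p 1.3e-05). Ciita, the master regulator of class II genes, differed by -1.89 and Cd74, the invariant chain, by -1.87. The small intestine values of H2-Ab1 lay close together, whereas the colon values were spread widely, with mouse 1 highest and mouse 5 lowest. The list median was -0.80, -1.27, -1.31, -2.13 and -2.34 in mice 1 to 5. Mice 1 to 3 carry the letter A in their source codes and mice 4 and 5 the letter B; the labels do not say what the letter stands for, and the list median was -1.07 in mice with the letter A and -2.26 in mice with the letter B.

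Interferon response genes also varied between mice in colon, with mouse 1 highest and mouse 5 lowest. Of 43 tested of 49 listed, 13 were lower in colon and 1 higher, a share called of 32.6% beside the 40.3% of all genes. The list median was 0.19 in mouse 1 and between -0.87 and -0.25 in the other mice. Ido1, which breaks down tryptophan, and Ifi47, an interferon-inducible GTPase, stand outside the list and are named because they varied most between mice. Ido1 had levels of 10.73, 7.50, 8.56, 9.48 and 5.79 in colon and of 11.24, 11.02, 10.80, 10.88 and 11.02 in small intestine (-2.58 ± 0.71, adjusted p 0.0062), and without mouse 5 it was not called (-1.92). Cxcl9, a chemokine induced by interferon-gamma, had levels of 9.92, 5.72, 6.91, 6.36 and 5.01 in colon and of 9.05, 8.02, 7.80, 8.31 and 8.35 in small intestine. Its difference of -1.52 ± 0.64 was not called (adjusted p 0.066), and mouse 1 was the only mouse with a higher level in colon; it was called without mouse 1 (-2.12) and in a fit of these 5 mice alone (-1.52, adjusted p 0.046). Ifi47 had levels of 10.19, 7.43, 8.13, 7.62 and 6.38 in colon and of 9.72 to 10.15 in small intestine (-2.08 ± 0.53). Psmb9, of the immunoproteasome, differed by -1.39, with values that overlapped. In mice with the code letter A alone, Ifi47 (-1.40, adjusted p 0.13), Psmb9 (-0.78, adjusted p 0.22) and Ido1 (-2.09, adjusted p 0.086) were not called.

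**Figure D4:**
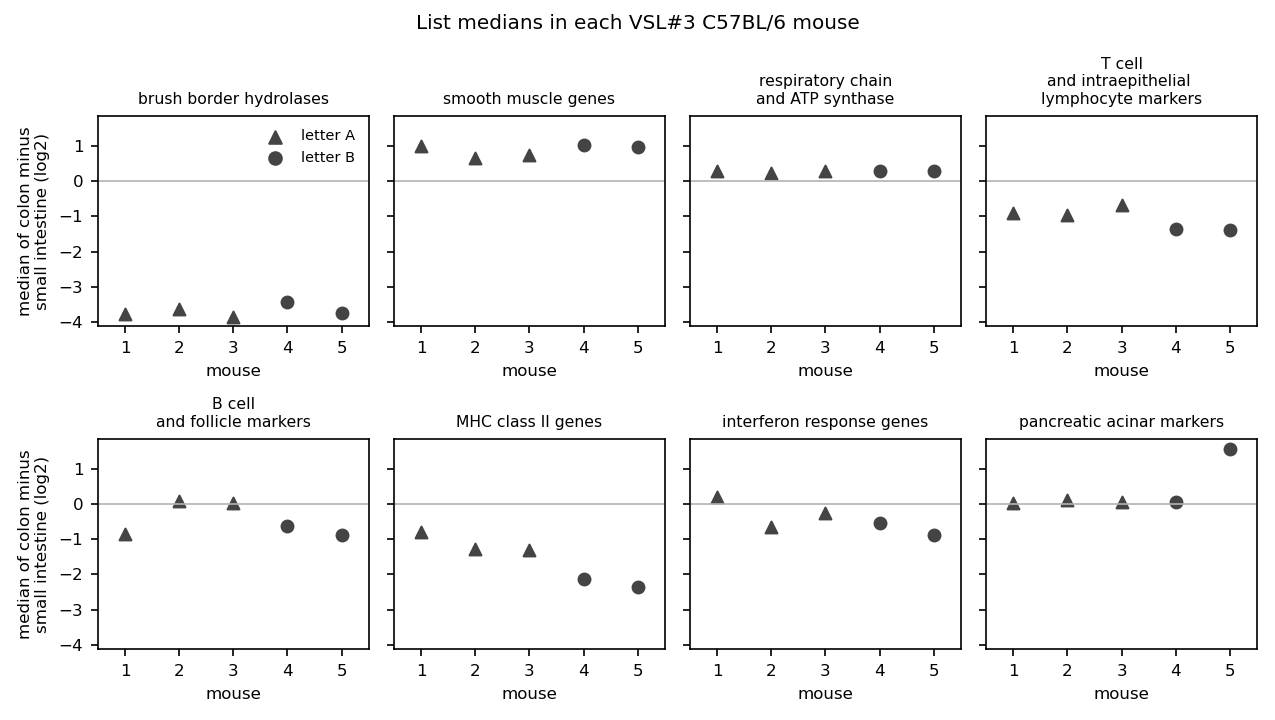
Median difference between colon and small intestine (log2, vertical axis) of 8 gene lists in each of the 5 VSL#3 C57BL/6 mice; triangles are mice with the code letter A and circles mice with the letter B. The interferon list lies at 0.19 in mouse 1 and below 0 in the other mice, while the respiratory chain list spans 0.22 to 0.29.

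Genes of Toll-like receptor and NF-kB signalling, which answers to bacterial products, differed in both directions. Of 45 tested of 58 listed, 9 were higher in colon and 11 lower, with a median of -0.05, and the share called (44.4%) lay near the 40.3% of all genes. Tlr1 (1.54) and Tlr2 (0.92), which sense lipoproteins, were higher in colon. Tlr4, the lipopolysaccharide receptor, had levels of 6.11 to 6.69 in colon and was detected on none of the small intestine arrays (at least 2.49-fold higher in colon, with a difference of 0.24 at another probe). Il18 (1.95) and Il1rn, the antagonist of interleukin-1 (3.34, with 0.56 at another probe), were higher in colon. Nfkbia, an inhibitor of NF-kB (-0.75), and Relb, a subunit of it (-1.31), were lower. Of the cytokines most often measured in probiotic studies, Tnf (-0.07), Il1b (-0.08) and Tgfb1 (-0.04) were not called, and Il10, Ifng, Il17a and Il6 did not pass the detection filter.

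Genes of the muscle wall were higher in colon. Of 32 tested of 37 listed smooth muscle genes, 27 were higher in colon, 5 were not called, and the median was 0.90, between 0.65 and 1.03 in each mouse. The mean level of the list was 9.63 to 9.84 in colon and 8.76 to 9.06 in small intestine. Tagln, transgelin, had levels of 9.07, 9.42, 9.34, 9.42 and 9.39 in colon and of 6.92, 7.64, 7.35, 7.11 and 7.09 in small intestine (2.10 ± 0.12). Fhl1 (1.73), Des, desmin (1.50), Actg2, enteric gamma actin (1.13), Myh11, the smooth muscle myosin chain (1.09), and Acta2 (0.99) were higher. Of 15 tested striated muscle genes, 2 were lower in colon and 1 higher: Acta1, skeletal actin, had levels of 7.24, 5.78, 7.37, 5.58 and 8.24 in colon and of 9.996, 9.83, 9.17, 8.54 and 9.75 in small intestine (-2.61 ± 0.48), and Tnni1, slow troponin I, was detected on none of the small intestine arrays and was at least 4.62-fold higher in colon.

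Of 46 tested of 57 listed matrix genes, 21 were higher in colon and 4 lower, with a median of 0.31 (54.3% called, beside the 40.3% of all genes). Ccn2, a matricellular growth factor (2.51), Col16a1 (1.43), and Eln, elastin (1.24), were higher. Adamdec1, a protease of the fibroblasts and macrophages of the lamina propria, was lower (-1.78). Of 26 tested of 44 listed genes of enteric neurons, glia and pacemaker cells, 13 were higher and 3 lower (61.5% called). Grp, gastrin-releasing peptide, differed by 2.36. Npy, neuropeptide Y (-1.37), Gal, galanin (-0.92), and Ednrb, the endothelin receptor needed by migrating neural crest cells (-1.36), were lower in colon. The part of muscle and nerve RNA in the differences of the other lists was not tested.

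Crypt genes split between markers. Olfm4, a stem cell marker of the small intestine, was detected on none of the colon arrays and had levels of 11.13 to 11.23 in small intestine, at least 66.8-fold lower in colon. Lgr5, the stem cell receptor for R-spondins, had levels of 5.00 to 5.81 in colon and of 6.45 to 7.06 in small intestine (-1.22 ± 0.19), and Axin2, a target of Wnt signalling, differed by -1.39. Lrig1 (0.76), Tcf7l2 (0.71) and Sfrp2 (1.54) were higher. Of 38 tested cell cycle genes, 6 were lower in colon and 2 higher (21.1% called, below the 40.3% of all genes).

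Junction genes were divided, with 6 lower and 5 higher of 20 tested. Cldn8, a sealing claudin of the colon, was detected on none of the small intestine arrays (at least 3.89-fold higher in colon, with 0.20 at another probe). Cldn15 (-1.26) and Cldn2 (-0.91), which form sodium pores, were lower in colon. Of 24 tested immediate early genes, 10 were higher in colon, among them Dusp1 (1.33) and Fos (0.83), and 3 lower (54.2% called). Of 23 tested chaperone genes, 9 were higher, among them Hspa1a (1.67) and Hspb1 (1.51), and 2 lower (47.8% called). Of 19 tested clock genes, 2 were higher and 2 lower (21.1% called), and of 15 endothelial and blood genes, 1 was higher and 4 lower (33.3%).

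The same mice that received VSL#3 were set against C57BL/6 mice that received PBS, to ask whether the tissue difference depends on the gavage. In the test of the difference between both groups' tissue differences, limma called 0 of 10715 genes (0%), and 467 had an unadjusted p under 0.05 (4.36%). Taken alone, PBS C57BL/6 mice had 4271 called genes, and 3511 genes were called in the same direction in both groups, 81.4% of the VSL#3 list and 82.2% of the PBS list. Across genes, the differences of both groups correlated with r = 0.965; the groups share the array type and the normalization, and genes are not independent replicates. Edn2, endothelin-2, had the smallest unadjusted p: its tissue difference was -1.79 in VSL#3 and -0.9997 in PBS C57BL/6 mice, a difference of -0.79 ± 0.15 with an adjusted p of 0.42.

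Set against BALB/c mice that also received VSL#3, the tissue difference differed for 302 of 10715 genes (2.82%), with 164 above 0 (1.53%) and 138 below (1.29%), and 1558 had an unadjusted p under 0.05 (14.5%). Without mouse 5 of the VSL#3 C57BL/6 group, 187 genes were called. Across genes, the tissue differences of both strains correlated with r = 0.885. Mptx1 had a tissue difference of 6.90 in C57BL/6 and of 1.02 in BALB/c mice, which differed by 5.88 ± 0.56 (adjusted p 9.9e-07). Nxpe4 and Lpo, lactoperoxidase, were also called, but their sizes are not exact, since no BALB/c small intestine array detected Nxpe4 and no small intestine array of either strain detected Lpo. The colon levels of Nxpe4 were 9.65 to 10.27 in C57BL/6 mice, where all 5 arrays detected it, and 4.90 to 5.31 in BALB/c mice, where 2 did. Those of Lpo were 4.75 to 5.18 in C57BL/6 mice, where 2 of 5 arrays detected it, and 9.15 to 9.60 in BALB/c mice, where all 5 did.

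**Figure D5:**
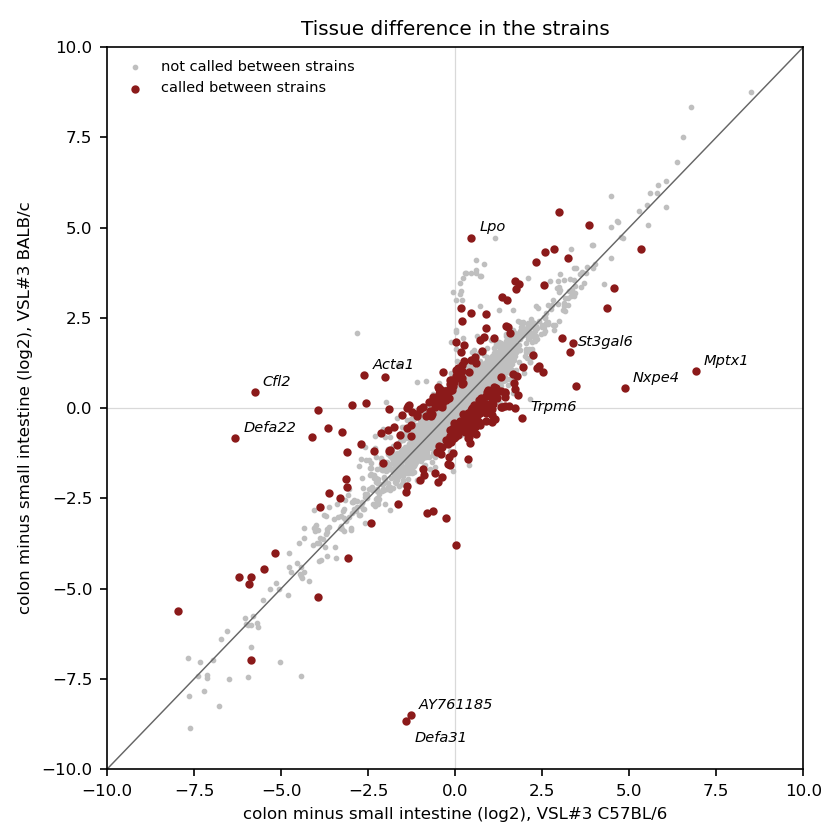
Difference between colon and small intestine (log2) of 10715 genes in VSL#3 C57BL/6 mice (horizontal axis) and VSL#3 BALB/c mice (vertical axis); the 302 genes whose differences differed between the strains are dark. Mptx1 (6.90 and 1.02), Trpm6 (1.91 and -0.27) and Acta1 (-2.61 and 0.92) lie away from the diagonal, as do Nxpe4 and Lpo, whose positions rest on small intestine signals not above background and are not exact.

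Defensin probes were among those that differed most between the strains. Defa22 had a tissue difference of -6.33 in C57BL/6 and of -0.83 in BALB/c mice (-5.50 ± 1.26). It was not called without mouse 5 of the C57BL/6 group (-5.16) or without mouse 3 or 5 of the BALB/c group (-4.83 and -5.06). Defa31 had -1.41 in C57BL/6 and -8.67 in BALB/c mice (7.26 ± 1.55), and AY761185, another defensin-family probe, -1.27 and -8.50 (7.23 ± 1.15). AY761185 was detected on 1 colon and 3 small intestine arrays in C57BL/6 mice and on 2 colon arrays in BALB/c mice. Defa31 was detected on 3 colon arrays in each strain, so the sizes of both genes are not exact. In the C57BL/6 small intestine, Defa31 had levels of 6.54, 6.21, 11.09, 7.08 and 4.40 and AY761185 levels of 5.01, 5.69, 9.51, 5.31 and 4.66, with mouse 3 far above the other mice for both. Without mouse 3 the tissue differences in C57BL/6 mice were -0.25 for Defa31 and -0.35 for AY761185. For AY761185 the BALB/c small intestine had 14.09 ± 0.25 (SD, n = 5).

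Against 2.82% of all genes, the tissue difference differed between the strains for 6 of 26 tested glutathione transferases, 6 of 43 genes of drug oxidation and conjugation, 5 of 13 Paneth cell products and 3 of 33 goblet cell and mucin genes. Such genes were not confined to these lists. Among others, they were 3 of 17 brush border hydrolases, 2 of 14 urea cycle genes, 3 of 25 sugar, peptide and amino acid transporters, 3 of 27 colonocyte transport genes, 3 of 27 surface epithelium genes and 3 of 28 myeloid markers. Of 24 lipid absorption genes, 26 Hox genes and 32 smooth muscle genes, 0 were called. In lists of this size, that cannot be told apart from the 2.82% of all genes. Other lists, such as the T cell markers and MHC class II genes, also had 0. Gstm1 had a tissue difference of 2.42 in C57BL/6 and of 1.15 in BALB/c mice, Gstm2 of 1.96 and 1.13, and Gsta3 of 1.05 and -0.39. At their other probes, the strain differences of Gstm1 (0.33, adjusted p 0.73) and Gstm2 (0.47, adjusted p 0.22) were not called. Among enzymes of mucin sugars, St3gal6 had 3.29 in C57BL/6 and 1.54 in BALB/c mice (1.74 ± 0.15), and Gcnt1, which branches mucin sugars, had 0.89 and 2.61 (-1.72). Trpm6 had 1.91 in C57BL/6 and -0.27 in BALB/c mice (2.18 ± 0.31), and Gsdmc2 2.58 and 4.34 (-1.75). Acta1 had -2.61 in C57BL/6 and 0.92 in BALB/c mice (-3.53 ± 0.68, adjusted p 0.0046). Cfl2, cofilin-2, had the largest value below 0 (-6.20), but another of its probes showed 0.07.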

How the data were processed

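Total RNA of frozen intestinal tissue was amplified from 500 ng, and 750 ng of biotin-labelled cRNA was hybridised to each Illumina MouseRef-8 BeadChip, per the labels' protocols. The deposited table holds background-subtracted probe intensities, 22.8% to 25.1% of them below 0 on the arrays used, and beside each a fraction that rises with intensity and was read as 1 minus the detection p-value, since the file headers name a detection p-value. The deposited log2 matrix was normalized by the authors and was used only to check the arrays: its 5 VSL#3 C57BL/6 colon columns follow VSL#3 BALB/c colon arrays of the intensity table and the reverse, so it was not used for colon. Scanner software is not given in the sources used here.

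Intensities were background-corrected with nec of limma 3.58.1 (R 4.3.3) from the detection values with an offset of 16, put on the log2 scale, and the 40 arrays were set to the same quantiles. Probes detected (p under 0.05) on at least 5 arrays were kept, and the probe with the highest mean stood for a gene. Of 25697 probes, 23978 had 1 symbol, 0 several and 1719 none, and 23962 were found in the RefSeq table of GRCm38.p6, which also gave the promoters. The colon minus small intestine differences of 20 mice in 4 groups were fitted with lmFit and eBayes. All groups, PBS BALB/c mice included, thus share an estimate of the spread. The labels do not say whether mice were housed apart. Precision is limited by 5 mice per group. The fit was tested on simulated data.

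Named genes were taken from the largest called differences in each direction, the largest, opposing and smallest members of each list, all members of 5 lists, the genes most variable between mice, the leading genes of each group contrast, the tissue markers and 9 cytokines and lectins. Abcg5, Acta2, Actg2, Agr2, Best2, C1qa, Cd160, Cpa1, Ern2, Gcnt1, Lgals3, Myh11, Nfkbia, Scnn1a, Scnn1b, Slc2a2, Spdef, Vil1 and H2-Ea, and the strain differences of genes outside the leading ones, fall outside this rule and were chosen after their values were seen. The members and lists were chosen with earlier results of these data known. Pairing comes from the mouse code in the labels. Deviations from the group mean of both tissues of a mouse correlated with a mean r of 0.19 in the 5 mice. This r ranged from 0.016 to 0.40 and passed 0.1 in 3 of them, and its mean was 0.158 in all 20 mice. Between tissues of different mice it was -0.05. Centring on group means largely sets that value from the same-mouse r, so it is no separate reference for the pairing. Alternatives covered background correction, normalization, probe filter and choice, pairing, code letter, the mice fitted and each mouse left out.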

Additional observations from a re-analysis of the deposited data

Results flagged for a closer look

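Among 266 sets of 5 mouse differences (226 genes and 40 lists), 16 had a mouse far from the others; chance flags about 1 in 20 such sets. Mouse 5 stood apart for the pancreatic acinar list, with a median of 1.56 against 0.03 to 0.12 in the other mice, for Cela2a (5.12 against -0.21 to 0.59), for Cpa1 (2.45 against 0.03 to 0.24) and for Ccl25 (-6.62 against -5.77 to -5.49). Mouse 4 stood apart for Ccl28 (0.013 against 1.19 to 1.63), Cd163 (-0.32 against 1.04 to 1.35) and Isx (-0.99 against -2.78 to -2.45), and for the median of the endothelial and blood list (0.11) and of the heat shock list (0.37). Mouse 3 stood apart for AY761185 (-4.96 against -0.84 to 0.27), Sis (-6.76 against -7.998 to -7.74) and Acta2 (0.85). Mouse 2 stood apart for Anpep (-7.52), Slc36a1 (-0.32 against 0.63 to 0.75) and the medians of the Hox list (0.057) and of the glutathione transferase list (0.52).

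The tissue difference of 25 named genes differed between VSL#3 C57BL/6 and VSL#3 BALB/c mice in the limma test of the difference. It was more positive in C57BL/6 mice for Defa31 (7.26), AY761185 (7.23), Mptx1 (5.88), Nxpe4 (4.32), Trpm6 (2.18), St3gal6 (1.74), Ccn2 (1.50), Gsta3 (1.43), Fgf15 (1.29), Gstm1 (1.27), Grp (1.25), Tgm3 (1.22) and Gstm2 (0.83). It was more negative in C57BL/6 mice for Cfl2 (-6.20), Defa22 (-5.50), Lpo (-4.26), Acta1 (-3.53), Defa21 (-2.33), Best2 (-1.80), Gsdmc2 (-1.75), Gcnt1 (-1.72), Xpnpep2 (-1.52), Npy (-1.41), Mmp7 (-1.21) and Treh (-1.05). For genes that no array of a tissue detected in at least one of these strains, namely Lpo, Nxpe4, Tgm3, Best2, Mmp7 and Treh, these values are no exact sizes. They are inexact as well for genes that only some arrays of a tissue detected, such as AY761185 and Defa31.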

How the results depend on the processing

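The counts of genes called between colon and small intestine stayed within 1.5 times under all alternatives run except these: with no further background correction, 860 genes were called higher in colon at 1 log2 or more, and a limma test against 1 log2 (treat) called 267 genes higher and 300 lower. Leaving out each mouse gave 2198 to 2370 genes higher and 1611 to 1703 lower. Of the called genes, 57.4% were higher in colon, against 64.8% with median scaling and 51.01% with cyclic loess. The contrast with PBS C57BL/6 mice called 1 gene with no further background correction. The contrast with VSL#3 BALB/c mice called 168 genes with no further background correction and 187 to 256 when a VSL#3 C57BL/6 mouse was left out, 187 without mouse 5. The cause of these changes was not tested.

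Without pairing the tissues by mouse (no replicate block), 2205 genes were higher in colon and 1588 lower. Mice of different groups share title numbers and the code letter (3 mice with A and 2 with B in each group), but no animal: deviations of same-numbered mice correlated above 0.1 in 0 of 5 pairs with PBS C57BL/6 and 1 of 5 with VSL#3 BALB/c. With that number as a replicate block, which also takes up the letter, 0 genes were called in the PBS contrast and 237 in the strain contrast.

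Of 3884 values of named genes under alternatives, 3773 kept their direction and side of the threshold. Directions changed for Cfl2 with its other probe (0.60, and 0.068 between strains) and for Zg16 with median scaling (-0.024) and cyclic loess (-0.12). They also changed for genes that were not called: Cck (0.19 with the letter B alone), Ang4 (0.32 with the letter A alone, -0.28 to 0.17 with single mice left out), Il1b (0.013 with median scaling, 0.12 with the letter A alone, -0.26 to 0.030 with mice left out), Tgfb1 (0.15 with the letter B alone, -0.13 to 0.12 with mice left out) and Tnf (-0.076 to 0.075 with mice left out). With no further background correction, the strain differences of AY761185 (7.55), Defa31 (8.53), Defa22 (-4.53) and Nxpe4 (3.31) were not called. Cdx2 (-0.51) and Gata6 (-0.21) were not called with median scaling, nor were Slc36a1 (0.42), Slc5a8 (0.41), Thy1 (0.30) and Lpo (0.30) with cyclic loess. With mice of the letter A or B alone, 17 and 21 named genes were no longer called. In both settings these included Cdx2, Gip, Hnf4a, Lpo, Nupr1, Slc5a8 and Thy1. With A alone they also included Adipoq, C1qa, Ccr6, Ido1, Ifi47, Jchain, Psmb9, Slc36a1, Tff3 and Tph1. With B alone they also included Ccl28, Cd163, Cdx1, Clca4a, Gal, Gata6, Guca2a, Hoxb9, Ndufa4, Retnla, Saa1, Slc29a1, Tlr2 and Zg16. List medians that changed sign with a scaling were those of Toll-like receptor and NF-kB signalling (0.01 with median scaling), fatty acid oxidation (0.04 with median scaling) and chaperones (-0.01 with cyclic loess). The T cell list had medians of -0.86 with the letter A and -1.47 with the letter B, and the interferon list of -0.28 and -0.67. Differences of genes detected in a single tissue are limited by the background.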
